A study of Mus musculus with 18 samples.

Results

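The genes described are the subunits of respiratory chain complexes I to IV in mouse brain cortex. They were chosen by symbol: protein-coding genes of the Ndufa, Ndufb, Ndufc, Ndufs and Ndufv, Sdh, Uqcr and Cox families 4 to 8, together with the mitochondrially encoded mt-Nd, mt-Co and mt-Cytb genes. Ndufv3 was left out by the same rule. This gave 78 of the 55385 genes in the count table, 67 encoded in the nucleus and 11 in the mitochondrial genome, and 77 had counts enough to be tested. Cox8c, an isoform of a complex IV subunit, had 0 counts in all 18 libraries.

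Polyadenylated RNA of cortex was sequenced in 18 libraries from adult mice of 3 genotypes, 6 per genotype with 3 males and 3 females in each. WT animals were wild-type C57BL/6J, aged 17.1 to 18 weeks. Dp16 animals of 17.1 to 18 weeks carry a duplication of a segment of chromosome 16 and so have 3 copies in place of 2 of its genes. In Dp16_2xIFNRs animals of 17.7 to 18 weeks the same duplication is present, with the dosage of the interferon receptor genes inside it returned to normal. The labels give no treatment for any group and name no strain for the duplication genotypes. None of the 78 genes lies in the duplicated segment, so no nuclear member gains a copy from it. Library totals ran from 46346019 to 67281449 counts. Summed markers of neurons, 10 of 10 tested, ran from 8462 to 10148 CPM, with none of them at 0 in any genotype. The labels do not state that each library is a separate animal. Libraries of 1 genotype that differ in sex or age come from different animals. Replicates 1 and 3 share both in Dp16 and in Dp16_2xIFNRs, and there only the library names differ. The p-values measure only the spread between these libraries.

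The respiratory chain passes electrons from NADH and succinate to oxygen and pumps protons across the inner mitochondrial membrane. Complex I oxidises NADH, complex II oxidises succinate and belongs also to the tricarboxylic acid cycle, complex III passes electrons from ubiquinol to cytochrome c, and complex IV reduces oxygen. Complexes I, III and IV are each assembled from subunits of both genomes, while complex II is wholly nuclear, and neurons rely on this pathway for most of their ATP.

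Levels between genes were compared as RPKM, the deposited read count scaled by gene length and by library total, taken as the median of the 18 libraries. Of the mitochondrially encoded genes 6 stood above every nuclear subunit. The transcript of mt-Co1, the catalytic core of complex IV, had 11223 RPKM, and mt-Cytb, the cytochrome b of complex III, had 8513 RPKM. Among the complex I genes mt-Nd1 had 7828, mt-Nd2 5719, mt-Nd5 3930 and mt-Nd4 2916 RPKM. The highest nuclear subunit was Cox4i1, a regulatory subunit of complex IV, at 460 RPKM. Within complex III the top nuclear member was Uqcrh, the hinge protein, at 208 RPKM, and within complex I it was Ndufb9, an accessory subunit, at 174 RPKM.

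Subunits of 1 complex did not share 1 level. In complex II, Sdha, the flavoprotein that binds succinate, had 129 RPKM and Sdhb, the iron-sulfur subunit, 77.2 RPKM. The membrane anchors were lower, with 42.2 RPKM for Sdhd and 22.7 RPKM for Sdhc. Uqcrq, a small subunit, was the lowest of complex III at 44.6 RPKM, and Ndufb2 the lowest of complex I at 8.75 RPKM. The gene length behind each RPKM differed. It was 4375 bases for Ndufb2 against 704 for Ndufb9, 1827 for Uqcrq against 535 for Uqcrb, and 3171 for Sdhc against 1231 for Sdhd. Without scaling by length, Uqcrq stood above Uqcrb (WT medians of 84.9 and 43.0 CPM) and Sdhc above Sdhd (72.3 and 51.1 CPM).

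Complex IV holds pairs of isoforms, and in each pair 1 isoform made up nearly all of the signal in cortex. Cox4i2, known from lung, had 2.12 RPKM against 460 RPKM for Cox4i1. The heart and muscle isoforms were low as well. Cox6a2 had 8.20 RPKM against 399 RPKM for Cox6a1, Cox7a1 had 1.43 RPKM against 134 RPKM for Cox7a2, and Cox8b had 0.444 RPKM against 428 RPKM for Cox8a. The forms known from testis stood at 1.85 RPKM for Cox6b2 beside 221 RPKM for Cox6b1, and at 0.285 RPKM for Cox7b2 beside 94.5 RPKM for Cox7b. Ndufa4, now placed in complex IV, had 216 RPKM and its relative Ndufa4l2 had 3.05 RPKM. These orders were the same in the lowest and the highest of the 18 libraries for each pair, since no range of a low isoform met that of its partner.

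**Figure D1:**
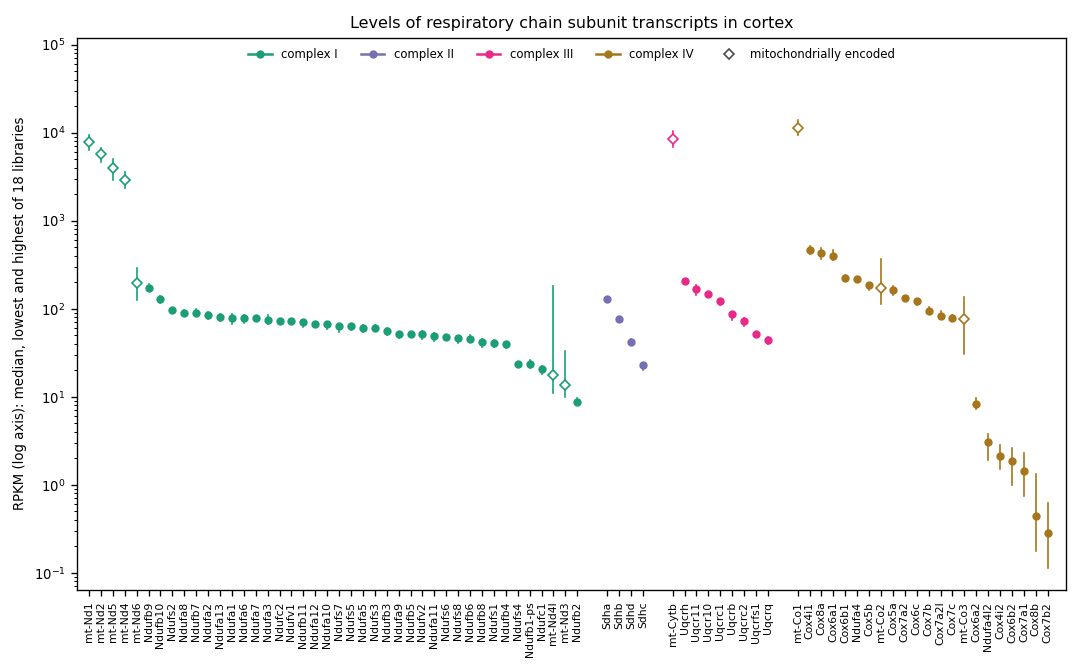
RPKM of each subunit transcript with a level above 0, on a log axis, ordered by level within complexes I to IV. Points are medians and lines run from the lowest to the highest of 18 libraries, open diamonds mark mitochondrially encoded genes, and 6 of these lie between 2916 and 11223 RPKM while the nuclear members end at 460 RPKM.

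Read counts were compared between genotypes with edgeR's quasi-likelihood F test over all 18717 genes tested, with sex as a term, and a call required p under 0.05 after Benjamini-Hochberg adjustment over those genes. No respiratory chain subunit passed this test in either duplication genotype. In Dp16 vs WT edgeR called 0 of 77 members, where 0.748% of all genes tested were called, and 3 members had an unadjusted p below 0.05 against 8.84% of all genes. In Dp16_2xIFNRs vs WT it called 0 of 77 (1.05% of all genes), with 5 members below an unadjusted p of 0.05 (11.5% of all genes). Both comparisons use the same WT libraries. The counts of unadjusted p moved with single libraries. In Dp16_2xIFNRs vs WT the 5 became 11 without WT replicate 3, 9 without WT replicate 6, and 2 without WT replicate 2 or Dp16_2xIFNRs replicate 5. It became 3 without WT replicate 1, 4 or 5, Dp16 replicate 3 or 6, or Dp16_2xIFNRs replicate 2 or 4, and it was 13 in females only and 0 in males only. In Dp16 vs WT the 3 became 5 without WT replicate 3 and 1 without WT replicate 2 or Dp16 replicate 6, with 6 in females only and 0 in males only. In Dp16_2xIFNRs vs Dp16 it called 0 of 77 (0.0214% of all genes), and 0 members had an unadjusted p below 0.05 (2.19% of all genes).

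DESeq2 called 0 members in each of the 3 comparisons, with 3, 6 and 1 members below an unadjusted p of 0.05. Limma-voom also called 0, with 3, 6 and 0 members below that p. For no member were the CPM ranges of 2 genotypes apart, while 0.919% of all genes had ranges apart in Dp16 vs WT, 1.34% in Dp16_2xIFNRs vs WT and 0.107% in Dp16_2xIFNRs vs Dp16. CPM here is the read count scaled to a common library size after TMM normalisation. In a test of both duplication genotypes together edgeR called 0 members (0.785% of all genes), 3 with an unadjusted p below 0.05 (8.85% of all genes).

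The intervals bound what differences remain compatible with these libraries. Of the 66 tested nuclear members, 59 had a mean of 1000 or more counts per library. For 59 of these 59 the 95% interval of the fold change lay inside 1.5-fold, in each of the 3 comparisons. It lay inside 1.2-fold for 59 members in Dp16 vs WT, 58 in Dp16_2xIFNRs vs WT and 59 in Dp16_2xIFNRs vs Dp16. Over all 77 tested members 65, 64 and 66 lay inside 1.2-fold, beside 47.2%, 45.5% and 51.2% of all genes. The ratio of copies in the duplication is itself 1.5.

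Subunits of mitochondrial machinery whose genes lie inside the segment rose in both duplication genotypes. Atp5j, a subunit of the ATP synthase, had 89.4, 99.1 and 102 CPM in WT (lowest, median and highest of 6), 140, 147 and 155 CPM in Dp16, and 133, 142 and 151 CPM in Dp16_2xIFNRs. Each library of both duplication genotypes lay above each WT library. Its fold change was 1.51 in Dp16 (edgeR adjusted p = 3.21e-08) and 1.47 in Dp16_2xIFNRs (edgeR adjusted p = 7.58e-08). Atp5o, of the same enzyme, and the mitochondrial ribosomal protein genes Mrpl39 and Mrps6 rose by 1.48-fold, 1.48-fold and 1.53-fold in Dp16.

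**Figure D2:**
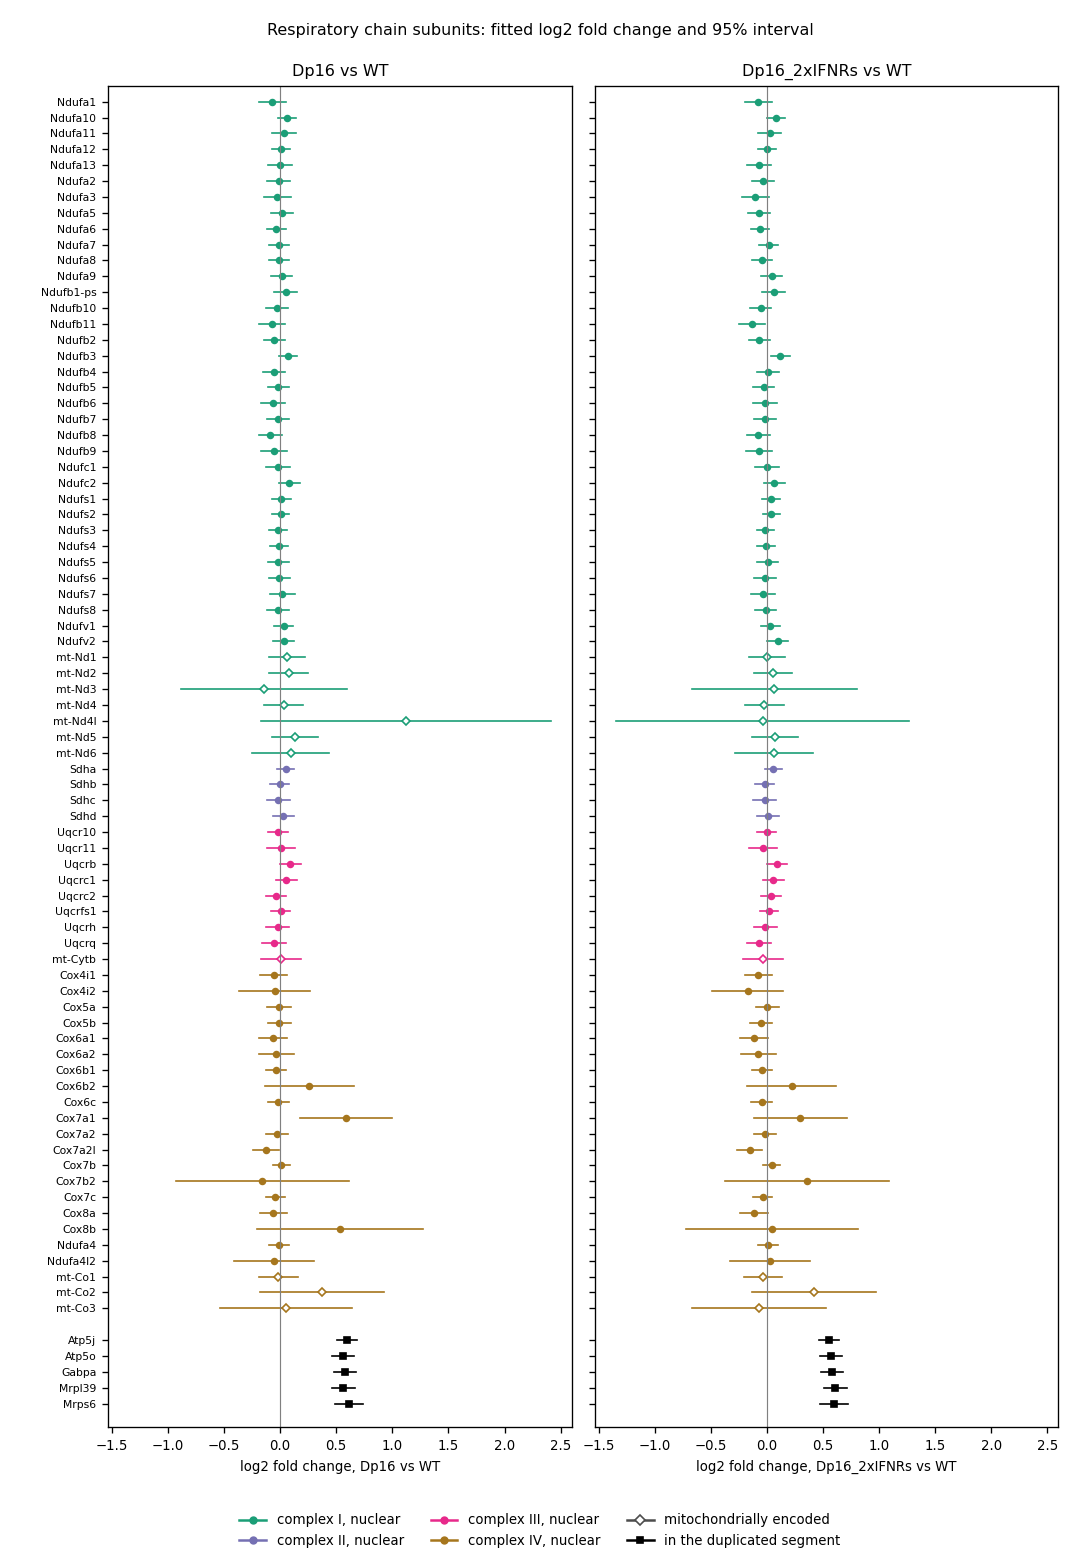
Fitted log2 fold change of each tested subunit against WT, with its 95% interval, in Dp16 on the left and Dp16_2xIFNRs on the right (n = 6 libraries per genotype). Colours are complexes, open diamonds mark mitochondrially encoded genes, and the 5 black squares are genes of the duplicated segment, whose intervals lie to the right of those of the abundant nuclear subunits.

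Nuclear and mitochondrially encoded members were then set side by side. The median log2 fold change of the 66 nuclear members was -0.014 in Dp16 vs WT, with 24 above 0, and -0.014 in Dp16_2xIFNRs vs WT, with 28 above 0. Over all genes the medians were -0.0017 and 0.00043, and 49.3% and 50.2% were above 0. The 11 mitochondrially encoded members had medians of 0.061, with 9 above 0, and 0.0043, with 6 above 0. Between the duplication genotypes the nuclear median was -0.0053 (30 of 66 above 0) and the mitochondrial median -0.043 (2 of 11 above 0), beside 0.0018 for all genes (50.9% above 0). In processing alternatives the nuclear and the mitochondrial medians each changed sign in all 3 comparisons, the nuclear ones running from -0.038 to 0.022, from -0.044 to 0.016 and from -0.019 to 0.013. With the middle number of the library names as a block, 49 and 43 of the 66 nuclear members were above 0 against WT. Libraries that share their number with no other add nothing to the genotype differences of that fit. Only the number of replicate 1 is shared directly by a WT and a Dp16 library.

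Both genomes' shares of each library were also close between genotypes. Nuclear members took 0.562 ± 0.0134% of the counts in WT, 0.561 ± 0.0156% in Dp16 and 0.560 ± 0.0157% in Dp16_2xIFNRs (SD, n = 6). The mitochondrially encoded members took 5.14 ± 0.672%, 5.30 ± 0.640% and 5.17 ± 0.368% (SD, n = 6). The groups overlapped in both shares, and the differences between their means were smaller than the SD within groups. In bulk tissue fewer cells of a type and less RNA per cell cannot be told apart.

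**Figure D3:**
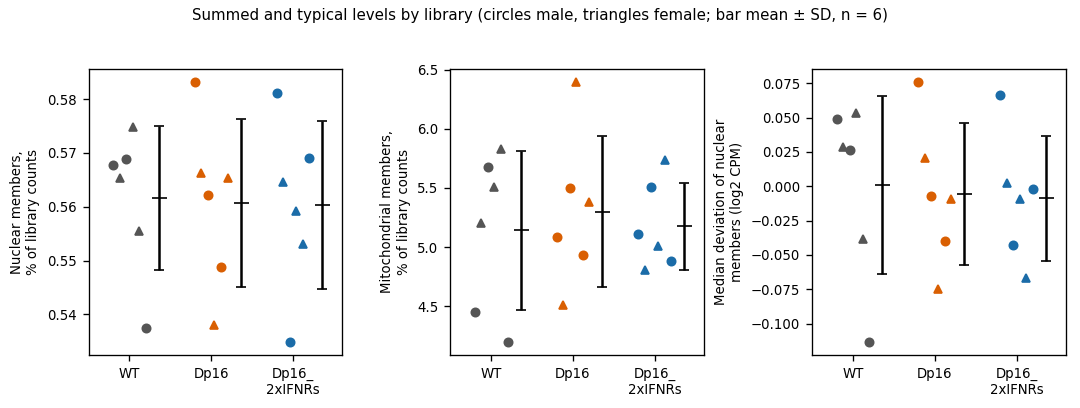
Summed and typical levels of the members in each of the 18 libraries. Panels show the share of counts taken by nuclear members and the share taken by mitochondrially encoded members. The last panel shows the median over nuclear members of the log2 CPM less the member's mean over the WT libraries. Circles are males, triangles females and bars mean ± SD (n = 6), and the lowest point in WT in all 3 panels is replicate 6.

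Within each genotype, many members shared the library in which they were highest or lowest. WT replicate 6 had the lowest CPM of the WT libraries for 35 of the 59 abundant nuclear members (59.3%), while it was lowest for 23.6% of all genes. It was lowest for 11 of 11 mitochondrially encoded members. Dp16 replicate 1 was highest in its group for 43 of 59 nuclear members (18.3% of all genes), and Dp16_2xIFNRs replicate 1 for 41 of 59 (16.8% of all genes). Dp16 replicate 4 was lowest for 32 of 59 nuclear members (24.8% of all genes) and highest for 9 of the 11 mitochondrial ones. The low values of WT replicate 6 came with the lowest summed markers of astrocytes (5891 CPM, where WT reached 9007 CPM) and microglia (326 CPM, where WT reached 507 CPM), each over 8 of 8 genes tested and none at 0. It was also the lowest WT library for summed endothelial (349.6 CPM), blood and choroid plexus markers. Replicate 6 of Dp16 and of Dp16_2xIFNRs was likewise lowest in its genotype for astrocyte and microglia markers, but was lowest for only 9 and 3 of the 59 nuclear members. Other summed markers had their lowest WT library elsewhere, neurons and muscle in replicate 5 and oligodendrocytes in replicate 1. Summed neuron markers were highest in replicate 1 of each genotype. Among the WT libraries, replicate 4 was highest for 20 of 59 nuclear members and replicate 1 for 16 of 59. The neuron markers were lowest in Dp16 replicate 4 and in Dp16_2xIFNRs replicate 5, which was lowest for 24 of 59 nuclear members. The part of cell composition in these patterns was not tested. Members called without WT replicate 6 numbered 0 in all 3 comparisons.

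Among the nuclear subunits of complex I, the core subunits carry the redox centres and the accessory ones surround them. In Dp16 vs WT 5 of 7 core and 9 of 28 accessory genes were above 0, with medians of 0.012 and -0.014, and in Dp16_2xIFNRs vs WT 4 of 7 and 10 of 28, with medians of 0.032 and -0.018. Ndufb3, an accessory subunit of the membrane arm, had the smallest p. It had 38.2, 41.1 and 42.7 CPM in WT (lowest, median, highest), 40.9, 42.4 and 46.4 CPM in Dp16, and 42.6, 44.2 and 45.9 CPM in Dp16_2xIFNRs. The Dp16_2xIFNRs range touched only the upper end of the WT range. Its log2 fold change was 0.12 ± 0.04 (SE) in Dp16_2xIFNRs vs WT (edgeR adjusted p = 0.199, all 6 libraries above the WT mean) and 0.070 in Dp16 vs WT (edgeR adjusted p = 0.666).

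Ndufb3 was also the member that a setting brought past the threshold. Limma on log2(RPKM + 0.1) called it in Dp16_2xIFNRs vs WT, with a log2 fold change of 0.13 and adjusted p = 0.0243. Other members of complex I with an unadjusted p below 0.05 in Dp16_2xIFNRs vs WT were Ndufb11, at -0.13, and the core subunit Ndufv2, which binds an iron-sulfur cluster, at 0.095. Ndufc2, an accessory subunit, led complex I in Dp16 vs WT at 0.080 (edgeR adjusted p = 0.664). Ndufa5, of the matrix arm, led it in Dp16_2xIFNRs vs Dp16 at -0.087, with an adjusted p of 1.

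In complex II, no log2 fold change was larger in size than 0.058 in the 3 comparisons. Sdha had 347, 361 and 389 CPM in WT, 358, 374 and 394 CPM in Dp16, and 369, 374 and 392 CPM in Dp16_2xIFNRs. The 3 ranges overlapped, though 4 of 6 WT libraries lay below the lowest Dp16_2xIFNRs library. The log2 fold changes were 0.048 (95% interval -0.030 to 0.13) and 0.058 (-0.020 to 0.14) against WT. Sdhb gave -0.0043 and -0.018, Sdhc -0.015 and -0.019, and Sdhd 0.029 and 0.0098, each with an edgeR adjusted p of 0.937 or more in Dp16 vs WT. For Sdha the edgeR adjusted p was 0.796 in Dp16 vs WT and 0.618 in Dp16_2xIFNRs vs WT, the smallest of complex II.

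In complex III, Uqcrb, which binds near the ubiquinone site, had the smallest p against WT. Its CPM were 40.7, 43.0 and 47.4 in WT, 41.9, 46.6 and 49.3 in Dp16, and 43.9, 46 and 48.6 in Dp16_2xIFNRs. The groups overlapped, and the log2 fold change was 0.092 in Dp16 vs WT (edgeR adjusted p = 0.554) and 0.091 in Dp16_2xIFNRs vs WT (edgeR adjusted p = 0.430). Of its windows of 100 bases 15.8% also occur in a transcript of another gene. Uqcrc2, a core protein, led complex III between the duplication genotypes at 0.075, with an adjusted p of 1.

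Complex IV had the lowest nuclear medians, -0.034 in Dp16 vs WT with 4 of 19 above 0, and -0.038 in Dp16_2xIFNRs vs WT with 8 of 19 above 0. Cox7a2l, a member of the Cox7a family known for joining complexes III and IV into supercomplexes, had the lowest fold changes among its abundant subunits. It had 89.9, 107 and 110 CPM in WT, 88.6, 92.8 and 103 CPM in Dp16, and 88.5, 92.4 and 101 CPM in Dp16_2xIFNRs. All 12 libraries of the duplication genotypes were below the WT mean, while the lowest WT library, replicate 6, lay within their range. The log2 fold changes were -0.13 (edgeR adjusted p = 0.493) and -0.15 (edgeR adjusted p = 0.232). Without WT replicate 6 the adjusted p were 0.184 and 0.0555.

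Cox7a1, the heart and muscle isoform, had the largest difference of complex IV that reached an unadjusted p below 0.05, at a level near 1 CPM. It had 0.393, 0.581 and 0.850 CPM in WT, 0.564, 0.952 and 1.26 CPM in Dp16, and 0.464, 0.799 and 0.815 CPM in Dp16_2xIFNRs. Its log2 fold change in Dp16 vs WT was 0.59 ± 0.20 (SE), with 5 of 6 Dp16 libraries above the WT mean (edgeR adjusted p = 0.281). The highest value was in Dp16 replicate 2, which also held the highest Cox8b, at 0.491 CPM. In that library Myh4, a myosin of fast skeletal muscle, had 38.3 CPM while the median of Dp16 was 0.718 CPM. The summed muscle markers, 6 of 8 with counts enough to be tested and none at 0 in any genotype, reached 119 CPM there against at most 21.4 CPM in WT and 17.9 CPM in Dp16_2xIFNRs. The part of muscle RNA in these values was not tested.

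**Figure D4:**
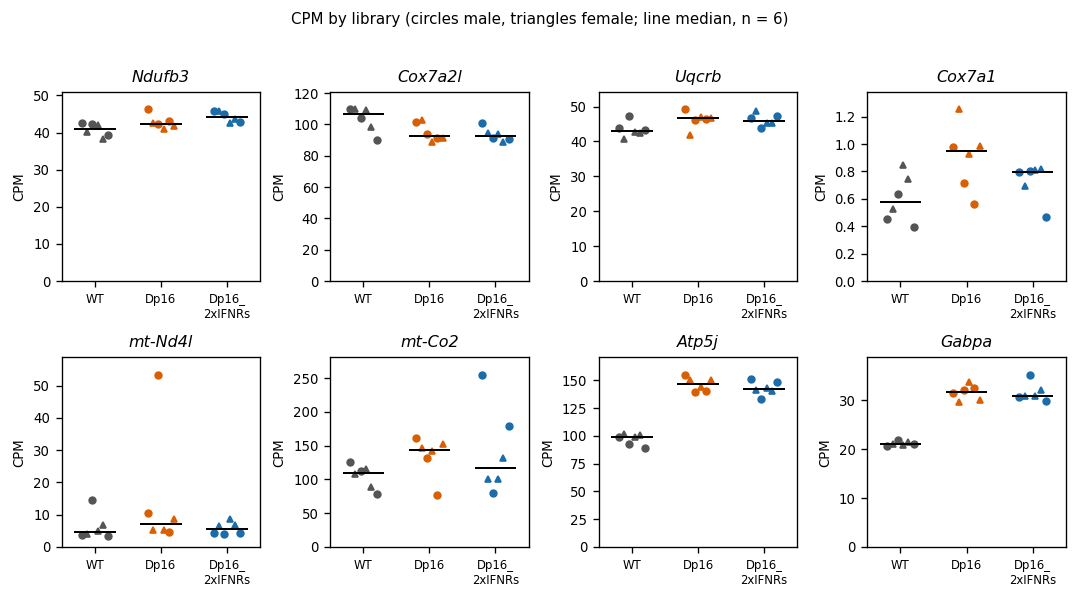
CPM in each library of 6 subunits and of Atp5j and Gabpa, which lie in the duplicated segment. Circles are males, triangles females and lines medians (n = 6), and the WT points lie below all others for Atp5j and Gabpa but overlap them for the 6 subunits.

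The mitochondrially encoded members fell into groups by level that followed how much of their sequence also occurs in the nucleus. Nuclear copies of mitochondrial DNA are common in mammalian genomes, and a read that matches both cannot be placed from its sequence. Windows of 100 bases from each mitochondrial gene were looked up in the transcripts of all other genes. Nuclear sequence outside annotated transcripts was not searched, so 0% does not mean absent from the nucleus. For mt-Co3, mt-Co2, mt-Nd4l and mt-Nd3 the shared windows were 99.9%, 99.5%, 98.5% and 97.6%, and their levels were 76.3, 171, 17.8 and 13.7 RPKM. For mt-Nd4 60.8% and for mt-Co1 30.8% were shared, for mt-Nd2 3.19%, and for mt-Nd1, mt-Nd5, mt-Nd6 and mt-Cytb 0%. Those 7 genes had between 2916 and 11223 RPKM, except mt-Nd6, the member encoded on the opposite strand, with 196 RPKM. Among these 7 the level did not follow the share, as mt-Co1 was the highest and mt-Nd6 the lowest.

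The copies that share the most windows with each gene are 6 pseudogenes in a block of 4663 bases on chromosome 1 (chr1:24611535-24616197, GRCm38), plus Gm13339 on chromosome 2 for mt-Nd2. Windows of mt-Co1 and of mt-Co2 each occur in 2 other genes. Gm29216 of the block holds 26.3% of the mt-Co1 windows. Stretches of 60 bases are printed to show what distinguishes a gene from its copy, 5′ to 3′ along the gene, with differing bases in capitals. The mt-Co3 stretch (chrM:8968-9027, + strand) is found without a difference in Gm28437 (chr1:24613551-24613610, - strand).
mt-Co3: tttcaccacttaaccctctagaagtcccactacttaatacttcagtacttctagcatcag
Gm28437: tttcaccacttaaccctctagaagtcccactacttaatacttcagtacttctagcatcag
The mt-Nd3 stretch (chrM:9461-9520, + strand) holds the only difference over 345 aligned bases from Gm28438 (chr1:24613058-24613117, - strand).
mt-Nd3: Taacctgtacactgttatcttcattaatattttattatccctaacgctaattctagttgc
Gm28438: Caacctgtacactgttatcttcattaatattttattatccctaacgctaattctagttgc
The mt-Nd2 stretch (chrM:4685-4744, + strand) holds 4 of the 17 differences over 510 aligned bases from Gm13339 (chr2:22590231-22590290, - strand).
mt-Nd2: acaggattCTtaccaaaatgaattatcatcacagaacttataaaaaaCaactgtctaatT
Gm13339: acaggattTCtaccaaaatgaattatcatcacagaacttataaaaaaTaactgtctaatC

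The copies of the 4 genes shared nearly whole carried counts of the same order as the genes. Their median CPM over 18 libraries, divided by that of the mitochondrial gene, was 1.73 for Gm28437 and mt-Co3, 0.957 for Gm28661 and mt-Co2, 1.1 for Gm10222 and mt-Nd4l, and 1.19 for Gm28438 and mt-Nd3. For mt-Nd2 and Gm13339 the ratio was 0.00198. Gm28437 itself ranged from 29.9 to 354 CPM within WT. The smallest adjusted p of any of the 7 copies against WT was 0.556, in edgeR's test. No source used here says how reads that match several places were counted, and its part in the low levels was not tested.

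Among the mitochondrially encoded members, 3 of the same 4 genes were also the most variable within WT. The coefficient of variation of the CPM over 6 WT libraries was 67.7% for mt-Nd4l, 53.0% for mt-Co3 and 48.4% for mt-Nd3, but 16.7% for mt-Co2. For mt-Nd6 it was 28.9%, and for the 6 abundant genes it lay between 11.2% for mt-Nd1 and 15.5% for mt-Nd5. Abundant nuclear subunits such as Cox4i1 and Sdha had 8.56% and 4.05%.

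**Figure D5:**
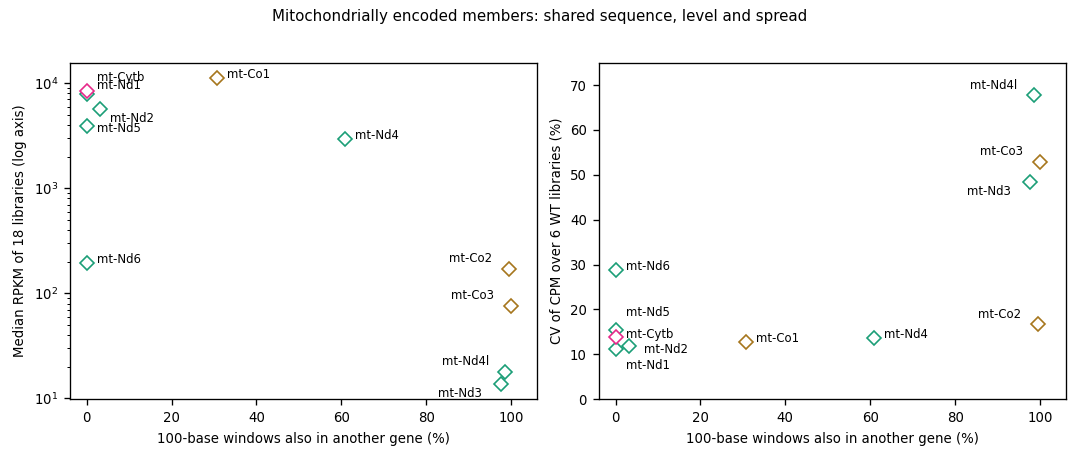
Median RPKM of 18 libraries on a log axis (left) and coefficient of variation of CPM over 6 WT libraries (right) of the 11 mitochondrially encoded members, against the percentage of 100-base windows found in a transcript of another gene. Colours are complexes as in the other plots, and the 4 genes above 97% on the x axis have levels from 13.7 to 171 RPKM.

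Genotype differences of the mitochondrial members followed this division in their precision. For the 6 abundant genes, which held over 99% of the mitochondrial members' counts in each library, 95% intervals lay inside 1.5-fold for 6 of 6 in each comparison. Their medians were 0.047, -0.0097 and -0.049 in Dp16 vs WT, Dp16_2xIFNRs vs WT and Dp16_2xIFNRs vs Dp16. The mt-Nd5 transcript had 5141, 7267 and 7699 CPM in WT, 6276, 7296 and 9230 CPM in Dp16, and 6183, 7056 and 8331 CPM in Dp16_2xIFNRs. Its log2 fold change was 0.13 in Dp16 (95% interval -0.071 to 0.34, edgeR adjusted p = 0.781), the largest of the 6. The mt-Co1 transcript had 14364, 18638 and 19634 CPM in WT, 15795, 17016 and 21363 CPM in Dp16, and 16042, 17050 and 19174 CPM in Dp16_2xIFNRs, and all groups overlapped.

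The largest difference of any member against WT, that of mt-Nd4l in Dp16, rested on 1 library. This complex I gene had 3.25, 4.60 and 14.6 CPM in WT, 4.50, 7.05 and 53.4 CPM in Dp16, and 4.11, 5.46 and 8.58 CPM in Dp16_2xIFNRs. Dp16 replicate 3 held the value of 53.4 CPM, and the next Dp16 library had 10.7 CPM. The log2 fold change was 1.12, with a 95% interval from -0.17 to 2.41 (edgeR adjusted p = 0.650), and it was 0.13 without Dp16 replicate 3. Dp16_2xIFNRs vs Dp16 gave -1.16 with that library and -0.27 without it. Dp16 replicate 3 also had the highest summed choroid plexus markers, 383 CPM against a Dp16 median of 18.5 CPM, and their part in the value was not tested. For mt-Co2 the log2 fold change was 0.38 in Dp16 and 0.42 in Dp16_2xIFNRs (edgeR adjusted p = 0.761 and 0.607), with Dp16_2xIFNRs between 79.5 and 255 CPM.

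Gabpa, inside the segment, encodes a subunit of a factor of the ETS family long known to bind promoters of respiratory genes, and it rose. It had 20.6, 21.1 and 21.9 CPM in WT, 29.6, 31.7 and 33.8 CPM in Dp16, and 29.9, 30.9 and 35.3 CPM in Dp16_2xIFNRs, with WT below all others. The fold change was 1.49 in each (edgeR adjusted p = 1.28e-07 and 1.38e-07). Nrip1, the other listed regulator of respiratory genes inside the segment, also rose. Its fold change was 1.39 in Dp16 and 1.42 in Dp16_2xIFNRs (edgeR adjusted p = 0.00519 and 0.00239). RefSeq promoter windows of GRCm38.p6, from 250 bases before to 50 after a start, were at hand for 52 of the 67 nuclear members in 54 windows. The ETS letters CCGGAAG, on either strand, were in 20.4% of the members' windows, 14.4% of those of tested genes and 8.86% of all windows. The letters GCGCA and GCGC parted by 1 base of any kind, bound by NRF1, another activator of respiratory genes, were in 22.2%, 8.24% and 4.60%. The YY1 letters AAGATGGC were in 13%, 3.67% and 2.75%, and the SP1 letters GGGCGG in 40.7%, 57.5% and 35.7%. NRF1 and SP1 letters do not overlap one another in the stretches shown.

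A pair of stretches of 100 bases shows such letters upstream of members, in capitals where a searched motif matched on either strand. The first, of Cox6a1 (chr5:115349021-115349120, - strand), ends 63 bases before the RefSeq start and holds NRF1 letters 2 times and SP1 letters. The promoter window of Cox6a1 also holds ETS letters, outside this stretch. The other, of Ndufb6 (chr4:40279554-40279653, - strand), ends 133 bases before the start and holds ETS and SP1 letters.
Cox6a1: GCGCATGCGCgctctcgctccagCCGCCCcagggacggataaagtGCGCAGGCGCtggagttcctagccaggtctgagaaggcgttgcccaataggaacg
Ndufb6: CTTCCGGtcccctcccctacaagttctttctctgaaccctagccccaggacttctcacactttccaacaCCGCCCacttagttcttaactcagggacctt
The log2 fold change in Dp16 vs WT was -0.065 for Cox6a1 and -0.060 for Ndufb6, an accessory subunit of complex I. Of the 11 members with ETS letters 2 were above 0 in Dp16 vs WT and 1 in Dp16_2xIFNRs vs WT, with medians of -0.020 and -0.018. Of the 41 without them 18 and 21 were above 0, with medians of -0.0073 and 0.00013. The 7 members with YY1 letters had 2 and 1 above 0, with medians of -0.0093 and -0.017. The 21 with SP1 letters had 7 and 8 above 0 (medians -0.019 and -0.018). The 11 with NRF1 letters had 5 and 6 above 0 (medians -0.0073 and 0.0067). A match of letters is a description and not a measured site.

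Genes that build or serve the chain, outside the segment, were read from the same fit. Of these lists edgeR called 0 genes in the 3 comparisons, where 0.748%, 1.05% and 0.0214% of all genes tested were called. Of 14 nuclear regulators of respiratory genes 1 was above 0 in Dp16 vs WT and 0 in Dp16_2xIFNRs vs WT, with medians of -0.10 and -0.058. Over all genes 49.3% and 50.2% were above 0. Of the 14 regulators 6 and 1 had an unadjusted p below 0.05 (8.84% and 11.5% of all genes). Ppargc1a, the coactivator of mitochondrial biogenesis, was at -0.20 in Dp16 vs WT (edgeR adjusted p = 0.345), and Yy1, a zinc finger factor, at -0.14 in Dp16_2xIFNRs vs WT (edgeR adjusted p = 0.0994). The complex I assembly factors had 13 and 14 of 19 genes above 0, with medians of 0.029 and 0.071, and 0 and 6 below that p. Their leading gene Ndufaf1, which helps to join the membrane arm, was at 0.11 in Dp16 and 0.20 in Dp16_2xIFNRs (edgeR adjusted p = 0.572 and 0.0994).

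The remaining lists were read in the same way. Assembly factors of complexes II to IV had 21 and 22 of 35 genes above 0 against WT, the tricarboxylic acid cycle 11 and 13 of 18, and genes of mitochondrial DNA maintenance and transcription 12 and 15 of 21. Electron carriers and other inner membrane dehydrogenases had 17 and 14 of 25 above 0. Mitochondrial ribosomal protein genes had 53 and 46 of 75, and ATP synthase subunits outside the segment 5 and 8 of 18. The largest of these list medians in size against WT was 0.055, that of the assembly factors of complexes II to IV in Dp16_2xIFNRs vs WT. In Dp16 vs WT that list was at 0.030, beside 0.029 for the complex I assembly factors. The smallest p of mitochondrial DNA maintenance were of Twnk, -0.15 in Dp16 vs WT, and Tfb1m, 0.29 in Dp16_2xIFNRs vs WT (edgeR adjusted p = 0.269 and 0.153). Genes of mitochondrial RNA processing had 8 and 12 of 20 above 0. Both mitochondrial ribosomal RNAs were above 0 in Dp16 vs WT and below 0 in Dp16_2xIFNRs vs WT. An unadjusted p below 0.05 in these 2 comparisons was found for 0 and 6 of 35 assembly factors of complexes II to IV. The counts were 5 and 3 of 21 for mitochondrial DNA maintenance, 3 and 6 of 75 for ribosomal proteins, and 2 and 2 of 25 for electron carriers. They were 0 and 1 of 18 for the tricarboxylic acid cycle and for the ATP synthase, and 0 and 2 of 20 for RNA processing.

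Sex was the other labelled factor. Between females and males edgeR called 0 of 77 members (0.0641% of all genes), with 4 below an unadjusted p of 0.05 (6.64% of all genes). Cox8b was the member of smallest p, with a log2 difference of 1.03 in females over males (edgeR adjusted p = 0.718), at 0.454 CPM or less in 17 of 18 libraries. For mt-Co3 the difference was 0.64 and for Cox7a1 0.39, both with an adjusted p of 0.741. In the test of an interaction of sex and genotype edgeR called 0 members (0% of all genes), and 1, Ndufs1, a core subunit of complex I, had an unadjusted p below 0.05 (3.20% of all genes).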

How the data were processed

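The deposited gene counts are whole reads per gene in 18 libraries, which the authors made, per the submitters' processing notes, with HISAT2 2.1.0, SAMtools 1.5 and HTSeq 0.6.1 on GRCm38, after FastQC 0.11.5. The deposited RPKM equal count over gene length and library total for 31735 of 31735 genes (relative tolerance 1e-06). Per the labels' protocols the libraries were poly-A selected and strand-specific. No source used here gives the strand setting of the counting or its handling of reads with several matches.

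Counts were filtered with filterByExpr (minimum count 10), scaled by TMM and fitted in edgeR 4.0.16 (R 4.3.3, robust quasi-likelihood, genotype plus sex, 14 residual degrees of freedom). P-values are from the F test (either direction), with Benjamini-Hochberg adjustment over 18717 genes. The fit was tried on counts simulated from its own dispersions. These held no shifts shared by many genes of 1 library, so the trial does not bear on such shifts. Intervals are 95% intervals of the fold change. Alternatives included DESeq2 1.42.0, limma 3.58.1, other scalings and filters, single sexes, blocks and leaving out libraries. Genes were placed by GENCODE M21, and transcript stretches are from that set.

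Named members were those called or without overlap, the smallest p of each complex per comparison, all mitochondrial members, the highest and lowest RPKM of each complex, the isoform groups and the Sdh genes. Ndufb11, Ndufv2, Ndufb6, Ndufs1 and a few members of other rank were named after their values were seen. Members and gene lists were chosen with earlier results of these data known.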

Additional observations from a re-analysis of the deposited data

Results flagged for a closer look

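Of 132 groups of 6 libraries examined over the named members, 10 had 1 library far from the other 5, and chance gives about 1 in 20 groups. Among mitochondrially encoded members, mt-Nd4l was 14.6 CPM in WT replicate 3 (next 6.86 CPM) and 53.4 CPM in Dp16 replicate 3 (next 10.7 CPM). The low library for mt-Co2 was Dp16 replicate 5 at 76.8 CPM (next 132 CPM), and the high one for mt-Nd6 was Dp16 replicate 4 at 144.6 CPM (next 108.7 CPM).

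Among nuclear members, Ndufc2 was 58.9 CPM in Dp16 replicate 1 (next 55.5 CPM) and Uqcrc2 was 119.8 CPM in Dp16 replicate 4, the lowest (next 134 CPM). In complex IV, Cox7b was 105.3 CPM in WT replicate 3 (next 93.8 CPM) and Cox6a2 was 6.49 CPM in Dp16 replicate 3 (next 5.69 CPM). Cox8b was 0.454 CPM in WT replicate 5 (next 0.207 CPM), and Cox7a1 was 0.464 CPM in Dp16_2xIFNRs replicate 6, the lowest (next 0.691 CPM).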

How the results depend on the processing

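Over 33 alternatives the count of members called was 0 in Dp16 vs WT and in Dp16_2xIFNRs vs Dp16. In Dp16_2xIFNRs vs WT it was 0 except with limma on log2(RPKM + 0.1), which called 1, Ndufb3 (adjusted p = 0.0243), and the cause was not tested. Leaving out single libraries gave 0 members called in each comparison, and nuclear medians from -0.036 to 0.0021, from -0.039 to -0.0022 and from -0.018 to 0.013. Mitochondrial medians then ran from -0.0074 to 0.12, from -0.069 to 0.10 and from -0.097 to 0.010. Over the whole table, genes called in Dp16 vs WT numbered 140, with 33 when the middle number of the library names, shared by some libraries, was a block and 247 with DESeq2. In Dp16_2xIFNRs vs WT they numbered 196, with 41 in males only and 394 with DESeq2. In Dp16_2xIFNRs vs Dp16 they numbered 4, with 0 in males only. With that number as a block 49 and 43 nuclear members were above 0 against WT, with medians of 0.022 and 0.016. That fit rests on the libraries that share a number, since the others add nothing to its genotype differences.

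With the replicate number as a block, 0 members were called in the 3 comparisons (smallest adjusted p in edgeR 0.198, 0.0804 and 0.999), with nuclear medians of -0.013, -0.014 and -0.0052. This block gave 168, 304 and 3 calls over the whole table, against 140, 196 and 4 in the reported fit. The labels do not say that a number marks a shared source. Of 18 pairs of same number 11 had a correlation of deviations over 0.1 (from -0.14 to 0.32). Among pairs of different number a smaller share was over 0.1, with correlations from -0.36 to 0.37. Of 18 libraries 6 correlated best with their own number. The reported fit did not take the numbers as pairs, and whether libraries of 1 number share a source was not tested. Of 7 pairs that share the middle number of the library names, 5 were over 0.1. Replicate 1 of WT, Dp16 and Dp16_2xIFNRs share 1 such number. Members near or below 1 CPM, such as Cox7a1 and Cox8b, had wide intervals at this depth.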
